A study of Mus musculus with 53 samples.

Results

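Transcripts of 51 genes of the endoplasmic reticulum were followed in the paraventricular nucleus (PVN) and arcuate nucleus (ARC) of mice with and without neuronatin. They were chosen by name as genes of signal peptide cleavage, of protein folding and stress, and of calcium handling, and all 51 were found among the 53379 genes of the count tables. Neuronatin, the product of the imprinted gene Nnat, is a small membrane protein of the endoplasmic reticulum. By role, 18 genes encode parts of the machinery that brings a nascent chain into the lumen and removes its signal peptide, 25 encode chaperones, disulfide isomerases, degradation factors or regulators of the unfolded protein response, and 8 encode calcium pumps and channels.

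A secreted protein or neuropeptide precursor enters the endoplasmic reticulum through the Sec61 channel, loses its signal peptide to the signal peptidase complex and is folded with the help of chaperones, most of which need a high concentration of luminal calcium. When unfolded chains accumulate, the sensors IRE1 (Ern1), PERK (Eif2ak3) and ATF6 raise the transcription of chaperone genes through XBP1, ATF6 and ATF4. Neurosecretory neurons of the PVN, which make vasopressin and oxytocin, are known for an abundant rough endoplasmic reticulum.

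All mice were C57BL/6. Nnat+/+ mice were compared with Nnat+/-p littermates, which had received from the father a germline null allele that lacks exons 2 and 3 and carries a lacZ cassette, so that loss of Nnat was not limited to one cell type. The nuclei were laser captured from cresyl violet sections, and total RNA was sequenced. The labels call the mice adult, and the extraction protocol gives 13 to 14 weeks of age, naming males only. In the PVN of males there were 3 chow-fed Nnat+/+ libraries, 3 non-obese and 4 obese chow-fed Nnat+/-p libraries, and 6 Nnat+/+ and 3 Nnat+/-p libraries of mice on a 45% high fat diet (HFD), begun at 4 weeks of age. In the PVN of chow-fed females there were 4 Nnat+/+ libraries and 3 libraries of each Nnat+/-p weight class. In the ARC of males there were 2 chow-fed Nnat+/+, 4 non-obese and 4 obese chow-fed Nnat+/-p, 6 HFD-fed Nnat+/+ and 4 HFD-fed Nnat+/-p libraries. Obese and non-obese refer to the labelled body weight of chow-fed Nnat+/-p mice.

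Levels are CPM, the count of a gene relative to the scaled total count of its library, over the 49 libraries used. Total counts ran from 2268021 to 8560199 in the male PVN, from 6219365 to 30228973 in the female PVN and from 1479953 to 18058097 in the male ARC. Nnat lay between 270 and 572 CPM in Nnat+/+ libraries and between 0.324 and 13.6 CPM in Nnat+/-p libraries. The 5 markers of PVN neurons (Avp, Oxt, Crh, Trh, Sim1) summed to a median of 1110 CPM in the male PVN and 27.8 CPM in the male ARC. Libraries 15 (chow-fed Nnat+/+) and 24 (HFD-fed Nnat+/+) of the male PVN stood apart, with sums of 10.1 and 146 CPM. The 6 markers of ARC neurons (Agrp, Npy, Pomc, Cartpt, Ghrh, Tbx3) summed to 214 and 82.4 CPM in these 2 libraries, against a median of 32.1 CPM over the male PVN. Over the male ARC libraries the PVN neuron markers summed to 8.98 to 71.2 CPM and the ARC neuron markers to 65.9 to 862 CPM. Both sums of library 15, and the ARC marker sum of library 24, lay inside these ARC ranges. Results that rest on these libraries are also given without them. The nuclei hold many cell types, so a larger share of a cell type and more RNA per cell cannot be told apart in these data.

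The endoplasmic reticulum stress element, spelled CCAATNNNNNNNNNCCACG, is the site known from chaperone promoters to be bound by ATF6 and XBP1 with NF-Y. RefSeq promoters (build GRCm38.p6, from 250 bases before to 50 bases after the start) were at hand for 41 of the 51 genes. Not at hand, and so not searched, were those of Sec11c, Spcs3, Sec61a1, Ssr2, Atf6, Manf, Hyou1, Atp2a2, Ryr3 and Itpr1. Searched on both strands, the element was found in 8 of the 41, Hspa5, Hsp90b1, Calr, Canx, Pdia6, Dnajc3, Creld2 and Syvn1, and in 39 of all 32851 promoters (0.119%). Its shorter relative ATTGGNCCACG was found in Herpud1 and in 12 of the 32851 (0.0365%). Every one of the 9 belongs to the folding and stress group. They are printed here because the element is known from chaperone genes, whose levels are compared in what follows. Capitals mark the fixed letters of either element, Hspa5 is shown for the 250 bases before its start, and the others are shown around the element, 5′ to 3′ on the strand of the gene.
Hspa5, chr2:34771840-34772089, plus strand: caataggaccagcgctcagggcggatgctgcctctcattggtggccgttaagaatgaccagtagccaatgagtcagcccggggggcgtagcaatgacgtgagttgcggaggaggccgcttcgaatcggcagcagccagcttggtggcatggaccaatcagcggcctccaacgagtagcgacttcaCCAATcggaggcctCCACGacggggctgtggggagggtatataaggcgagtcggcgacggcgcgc
Hsp90b1, chr10:86705503-86705686, minus strand: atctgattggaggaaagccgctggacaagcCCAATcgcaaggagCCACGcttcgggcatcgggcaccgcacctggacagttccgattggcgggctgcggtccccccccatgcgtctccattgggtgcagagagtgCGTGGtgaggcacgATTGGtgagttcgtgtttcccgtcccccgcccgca
Canx, chr11:50325770-50325848, minus strand: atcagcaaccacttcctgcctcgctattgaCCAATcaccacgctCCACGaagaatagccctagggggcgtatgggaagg
Calr, chr8:84847045-84847123, minus strand: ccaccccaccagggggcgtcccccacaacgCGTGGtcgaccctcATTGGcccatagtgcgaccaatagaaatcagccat
Pdia6, chr12:17266461-17266539, plus strand: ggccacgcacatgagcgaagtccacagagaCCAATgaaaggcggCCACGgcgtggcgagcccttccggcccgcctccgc
Dnajc3, chr14:118937797-118937875, plus strand: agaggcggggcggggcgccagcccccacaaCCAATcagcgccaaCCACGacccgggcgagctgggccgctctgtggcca
Creld2, chr15:88819490-88819568, plus strand: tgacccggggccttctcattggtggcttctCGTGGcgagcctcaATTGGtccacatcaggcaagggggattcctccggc
Syvn1, chr19:6046502-6046575, plus strand: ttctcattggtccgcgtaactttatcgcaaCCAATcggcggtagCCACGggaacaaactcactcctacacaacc
Herpud1, chr8:94386347-94386417, plus strand: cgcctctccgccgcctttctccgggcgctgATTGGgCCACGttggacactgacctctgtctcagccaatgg

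Hsp90b1 held 2 copies of the element, of which the second reads as its reverse complement, as do the copies in Calr and Creld2. The core ACGTGG, known as a binding sequence of XBP1, was in 9 of the 41 promoters (Spcs1, Sec63, Ssr1, Ssr3, Pdia6, P4hb, Dnajb9, Dnajc3, Herpud1) and in 8.31% of all promoters. TGATGNAAN, the composite element of ATF4 and C/EBP proteins, was in Herpud1, Trib3 and Chac1 and in 3.95% of all promoters. A match is a string of letters in this window, and no binding was measured.

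The 51 genes together took 0.367% to 0.778% of the counts of a male PVN library (median 0.528%), 0.437% to 1.04% of a female PVN library (median 0.901%) and 0.26% to 0.449% of an ARC library (median 0.36%). Per kilobase of exon, chaperones stood highest. In the male PVN the mean level was 176 ± 38.4 CPM per kb (SD, n = 19) for Hsp90b1 (GRP94), 164 ± 34.9 for Canx and 102 ± 25 for Hspa5 (BiP, the central chaperone of the lumen). In the ARC it was 119 ± 17.3 CPM per kb (SD, n = 20) for Hsp90b1, 123 ± 14.9 for Canx and 69 ± 12.3 for Hspa5. Canx and Hsp90b1, the 2 most abundant of the 51 in the ARC, differed there by less than the spread between libraries. In the female PVN the mean was 246 ± 72.4 CPM per kb (SD, n = 10) for Hsp90b1 and 217 ± 57.5 for Canx.

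**Figure D1:**
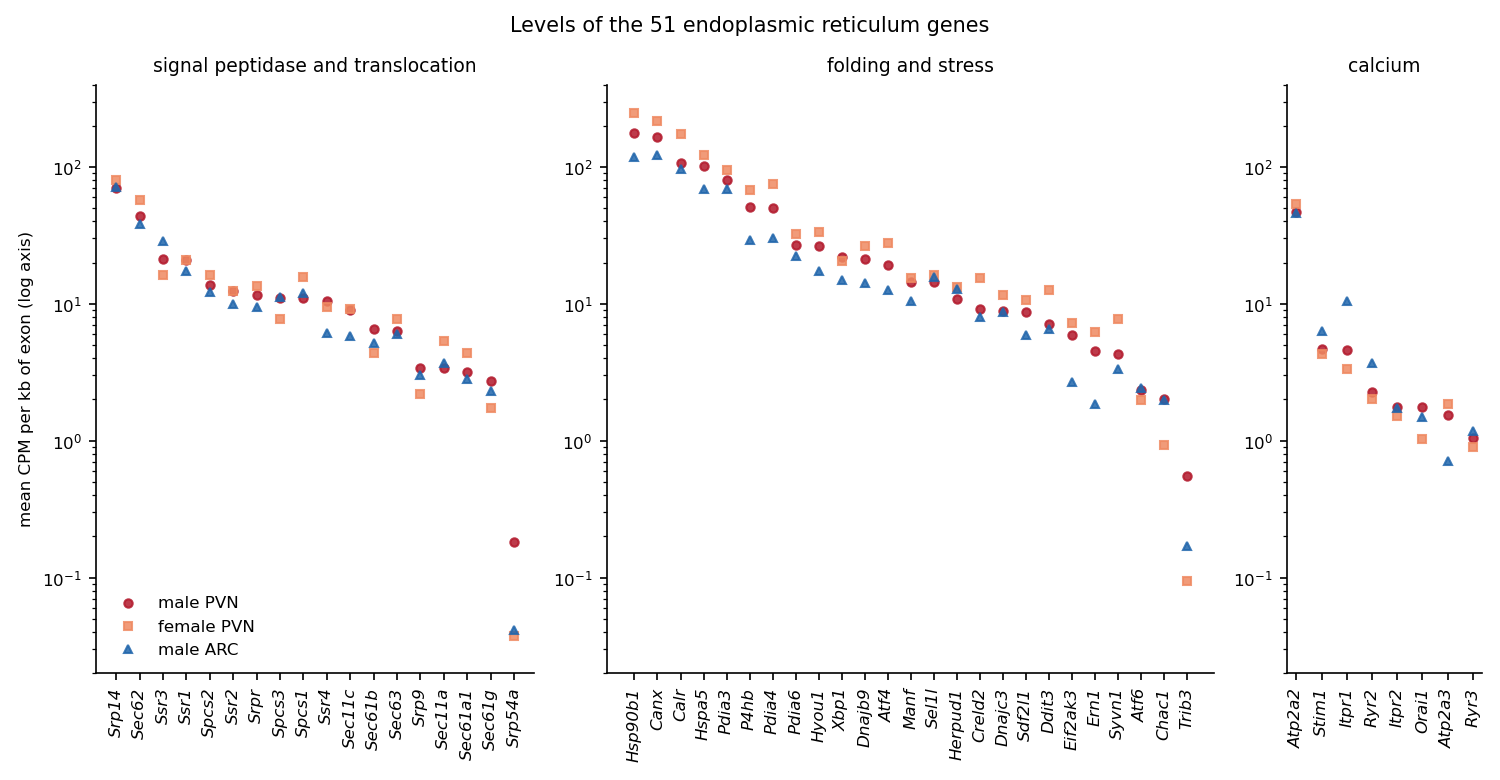
Mean CPM per kilobase of exon (log axis) of each of the 51 genes in the male PVN (n = 19), female PVN (n = 10) and male ARC (n = 20), by role. Hsp90b1 and Canx lead the folding group, Srp14 leads the translocation group, Atp2a2 leads the calcium group, and Srp54a and Trib3 lie at the bottom.

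In the translocation group the highest per kilobase was Srp14, a subunit of the signal recognition particle, with 40.5, 82.4 and 120 CPM as its lowest, median and highest male PVN library and 65, 83.5 and 103 CPM in the ARC. The lowest was Srp54a, with a median of 0.12 CPM in the male PVN, where 9 of 19 libraries had no count, and of 0 CPM in the ARC, where 11 of 20 had none. Srp54a has near-identical copies in the genome, so its count is uncertain. In the calcium group Atp2a2 (SERCA2, the main calcium pump of neurons) was highest, at 46.5 ± 6.56 CPM per kb in the male PVN and 45.9 ± 5.86 in the ARC. Lowest there were Ryr3, a ryanodine receptor, at 1.05 ± 0.412 CPM per kb in the male PVN, and Atp2a3 (SERCA3), at 0.715 ± 0.367 in the ARC. In the folding group Trib3, a pseudokinase induced by ATF4 and CHOP, was lowest, with a median of 0.678 CPM in the male PVN and 0.116 CPM in the ARC.

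All calls among the 51 genes came from the comparison of the nuclei. Male PVN was compared with male ARC over the 5 groups of genotype, diet and weight class that both nuclei share, by edgeR (quasi-likelihood test, p-values adjusted by Benjamini and Hochberg's procedure over 21400 genes). A gene was called where this adjusted p fell under 0.25, the threshold the study used with DESeq2's Wald test. Most labelled weights of the ARC libraries recur in the PVN libraries, so most mice are likely to have given both nuclei. The test treated all libraries as independent, and a fit with weight-matched mice as a block was run as an alternative. All 51 genes passed the filter on low counts. Of them 29 were called, 23 higher and 6 lower in the PVN, where 34.4% of all genes tested were called. At an unadjusted p under 0.05 there were 28, or 54.9%, against 28.7% of all genes. The median log2 fold change was 0.22 over the 51 genes and 0.13 over all genes. The test, and the words higher and lower, refer to 0 and not to 0.13, so small positive values are to be read with this median in mind. Pdia3, Spcs2, Ssr1, Pdia6 and Srpr were called higher at 0.19, 0.20, 0.25, 0.27 and 0.29, and whether they differ from 0.13 was not tested. By role, 19 of 25 folding and stress genes were called (17 higher, 2 lower, median 0.53), against 6 of 18 translocation genes (5 higher, 1 lower, median 0.18) and 4 of 8 calcium genes (1 higher, 3 lower, median -0.08).

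**Figure D2:**
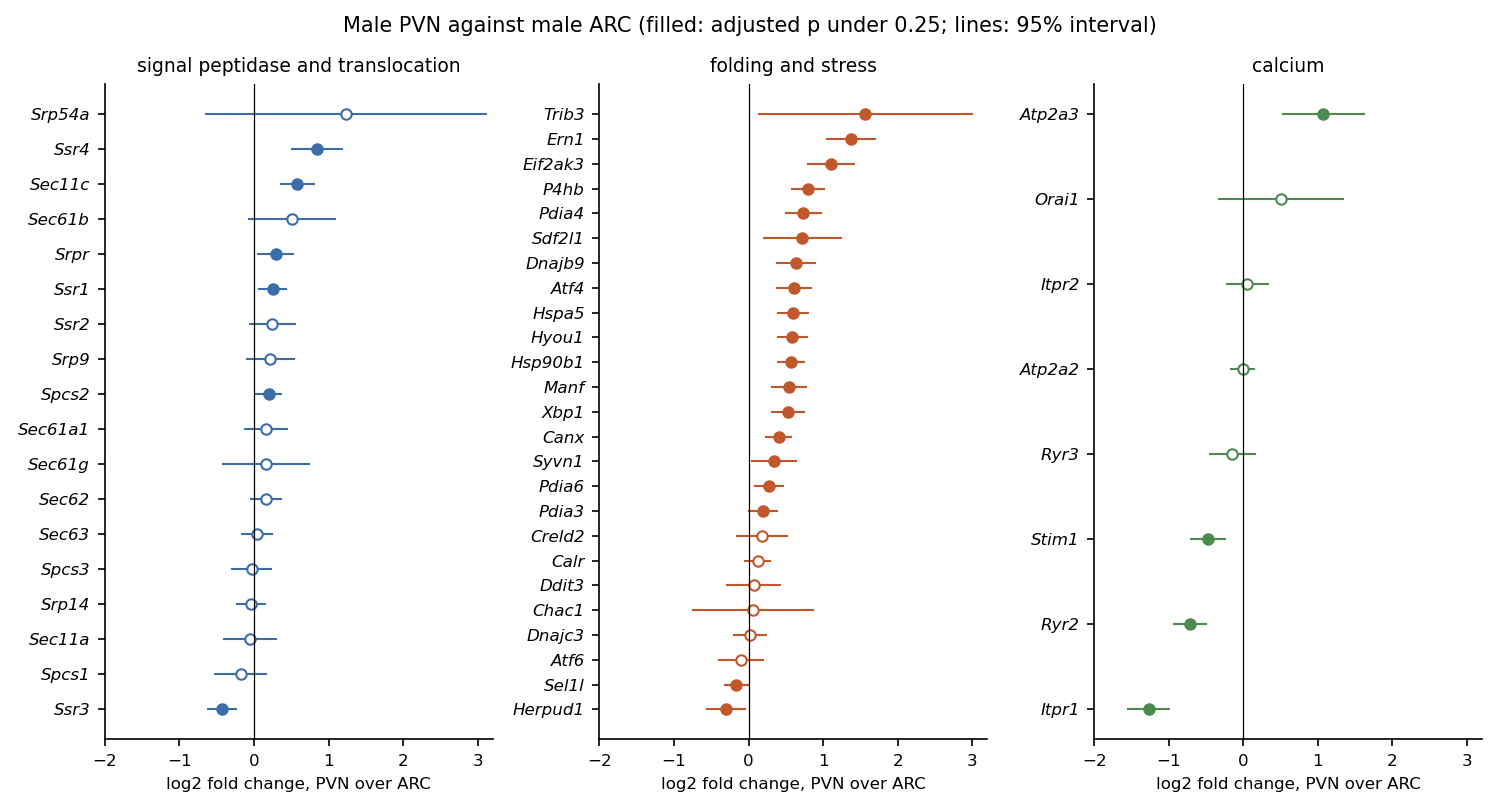
Log2 fold change of male PVN over male ARC for each of the 51 genes by role, with its 95% interval, filled where the adjusted p is under 0.25. Most folding and stress genes lie to the right of 0, led by Trib3, Ern1 and Eif2ak3, while Itpr1, Ryr2 and Stim1 lie to the left among the calcium genes; intervals that run past the axis are cut at its ends.

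The chaperones Hspa5, Hsp90b1 and Canx were higher in the PVN. Hspa5 ran from 234 through a median of 443 to 618 CPM in the PVN and from 199 through 292 to 375 CPM in the ARC. Of the 19 PVN libraries, 13 lay above the highest ARC library, although the ranges overlapped. Hspa5 had a log2 fold change of 0.60 (SE 0.10, adjusted p = 9e-06 by edgeR's quasi-likelihood test), and 0.67 without libraries 15 and 24. Hsp90b1 had 419, 712 and 1000 CPM as lowest, median and highest in the PVN and 360, 480 and 653 CPM in the ARC, a log2 fold change of 0.57 (SE 0.09). Canx, the membrane-bound lectin chaperone, was higher by 0.41 (SE 0.085), whereas its soluble relative Calr, at 0.12 (SE 0.085, 95% interval -0.04 to 0.29), was not called and stood at the median of all genes.

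All 4 disulfide isomerases were called higher in the PVN. P4hb (PDI itself) ran from 71.4 through 142 to 229 CPM in the PVN and from 52.8 through 86.1 to 100 CPM in the ARC, and 16 of 19 PVN libraries lay above the highest ARC library. Its log2 fold change was 0.80 (SE 0.11, adjusted p = 1.69e-07 by edgeR), and those of Pdia4, Pdia6 and Pdia3 were 0.73, 0.27 and 0.19. The last lay close to the median of all genes, and its call was lost without any one of libraries 18, 29 or 33. Hyou1, the nucleotide exchange factor of Hspa5, was higher by 0.59 (SE 0.098) and the co-chaperone Dnajb9 by 0.63 (SE 0.13), whereas the co-chaperone Dnajc3 gave 0.02 (95% interval -0.19 to 0.23). Manf, a secreted factor induced by endoplasmic reticulum stress, was higher by 0.54 (SE 0.115), and Sdf2l1, a stress-induced partner of Hspa5, by 0.72 (SE 0.26), and by 1.15 without library 34.

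Of the 3 sensors, IRE1 and PERK were higher in the PVN and ATF6 was not called. Ern1 (IRE1) ran from 12.3 through 33.6 to 62.5 CPM in the PVN and from 6.19 through 16.6 to 22.9 CPM in the ARC, with 16 of 19 PVN libraries above the highest ARC library. Its log2 fold change was 1.37 (SE 0.16, adjusted p = 3.97e-09 by edgeR), the smallest p among the genes higher in the PVN. Eif2ak3 (PERK) ran from 15.6 through 33.5 to 56.6 CPM against 4.97 through 14.9 to 36.4 CPM, a log2 fold change of 1.11 (SE 0.16), and all 19 PVN libraries lay above the ARC median. Atf6 gave -0.10 (SE 0.15, 95% interval -0.40 to 0.19). Of the transcription factors downstream, Atf4 was higher by 0.61 (SE 0.115) and Xbp1 by 0.53 (SE 0.11), while Ddit3 (CHOP), at 0.07 (SE 0.18), was not called. Trib3 had the largest fold change, 1.56 (SE 0.73, and 2.41 without library 37), at counts too low in most libraries to be precise, and it was not called with weight-matched mice as a block (adjusted p = 0.547). Chac1, another target of ATF4, gave 0.06 (SE 0.41), and the secreted stress protein Creld2 gave 0.18 (SE 0.17).

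The degradation factors did not move one way. Syvn1 (HRD1), the ubiquitin ligase that marks misfolded proteins, was higher in the PVN by 0.34 (SE 0.15), while its membrane partner Herpud1 was lower, with 12.3, 27.9 and 39.8 CPM in the PVN and 13.6, 31.6 and 44 CPM in the ARC. Herpud1 gave -0.30 on the log2 scale (SE 0.13), and 18 of 19 PVN libraries lay below the ARC median. Sel1l, the adaptor of Syvn1, was also lower (-0.17, SE 0.079), a call lost with weight-matched mice as a block (adjusted p = 0.353 by edgeR).

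In the translocation group the 6 of 18 genes called were a share close to the 34.4% of all genes. Sec11c, a catalytic subunit of signal peptidase, was higher in the PVN, with 40.2, 59.9 and 86 CPM as lowest, median and highest against 21.7, 39.2 and 58.2 CPM in the ARC. Its log2 fold change was 0.58 (SE 0.11, adjusted p = 8.73e-05 by edgeR), and all 19 PVN libraries lay above the ARC median. The other catalytic subunit, Sec11a, gave -0.05 (SE 0.17), and of the accessory subunits Spcs2 was higher by 0.20 (SE 0.087), while Spcs1 gave -0.17 (SE 0.18) and Spcs3 gave -0.03 (SE 0.13). Of the TRAP complex, which sits beside the Sec61 channel, Ssr4 was higher by 0.85 (SE 0.17) and Ssr1 by 0.25 (SE 0.09), Ssr3 was lower (-0.43, SE 0.098), and Ssr2 gave 0.24 (SE 0.15). Srpr, the receptor of the signal recognition particle, was higher by 0.29 (SE 0.12). None of the channel genes Sec61a1, Sec61b, Sec61g, Sec62 and Sec63 was called, nor were Srp9, Srp14 and Srp54a.

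Of the 8 calcium genes 3 were called lower, 1 higher and 4 were not called. Itpr1, the main inositol trisphosphate receptor of neurons, ran from 53.3 through 71.6 to 253 CPM in the PVN and from 81 through 183 to 312 CPM in the ARC. The 253 CPM were in library 15, and without libraries 15 and 24 the highest PVN value was 113 CPM. Of the 19 PVN libraries 13 lay below the lowest ARC library. Its log2 fold change was -1.27 (SE 0.14, adjusted p = 5.66e-10 by edgeR), the smallest p of the 51, and -1.44 without libraries 15 and 24. Ryr2, the main ryanodine receptor of neurons, was lower in the PVN (-0.71, SE 0.11), as was Stim1, the sensor of luminal calcium (-0.47, SE 0.115), and library 15 held the highest PVN value of both, 122 and 79.6 CPM. Atp2a3 was higher (1.07, SE 0.28), and Atp2a2 gave -0.01, with a 95% interval of -0.17 to 0.15. Itpr2, Ryr3 and Orai1, the plasma membrane channel that Stim1 opens, were not called.

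Among 76 other genes of the same pathways, 73 were tested and 24 were called between the nuclei, 16 higher and 8 lower in the PVN, with a median log2 fold change of 0.07, a share below the 34.4% of all genes. By role, 8 of 30 other folding and stress genes were called (5 higher, 3 lower), 10 of 28 other translocation genes (8 higher, 2 lower) and 6 of 15 other calcium genes (3 higher, 3 lower). Higher were Ryr1, Itpr3 and Tmco1 among calcium genes, Creb3l2, Atf5, Os9, Dnajc10 and Ppp1r15a among stress genes, and 8 genes of translocation and glycosylation. Lower were Rcn1, Stim2 and Orai2 among calcium genes, the stress genes Atf3, Asns and Wfs1, and the targeting genes Srp19 and Get1.

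Markers of cell types differed between the nuclei as well. Of the general lists, all 3 endothelial markers were higher in the PVN (sum 55.1 to 152 CPM, against 32.1 to 67.9 CPM in the ARC). All 4 oligodendrocyte markers were lower (median sum 312 against 506 CPM), as were 3 of 4 neuronal markers (496 to 1130 against 486 to 1190 CPM), 3 of 4 astrocyte markers and 3 of 4 microglial markers. All 5 PVN neuron markers were higher and all 6 ARC neuron markers lower. Their part in the differences of the 51 genes was not tested. The nuclei also came in separate count tables, so nucleus and sequencing pool cannot be told apart.

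**Figure D3:**
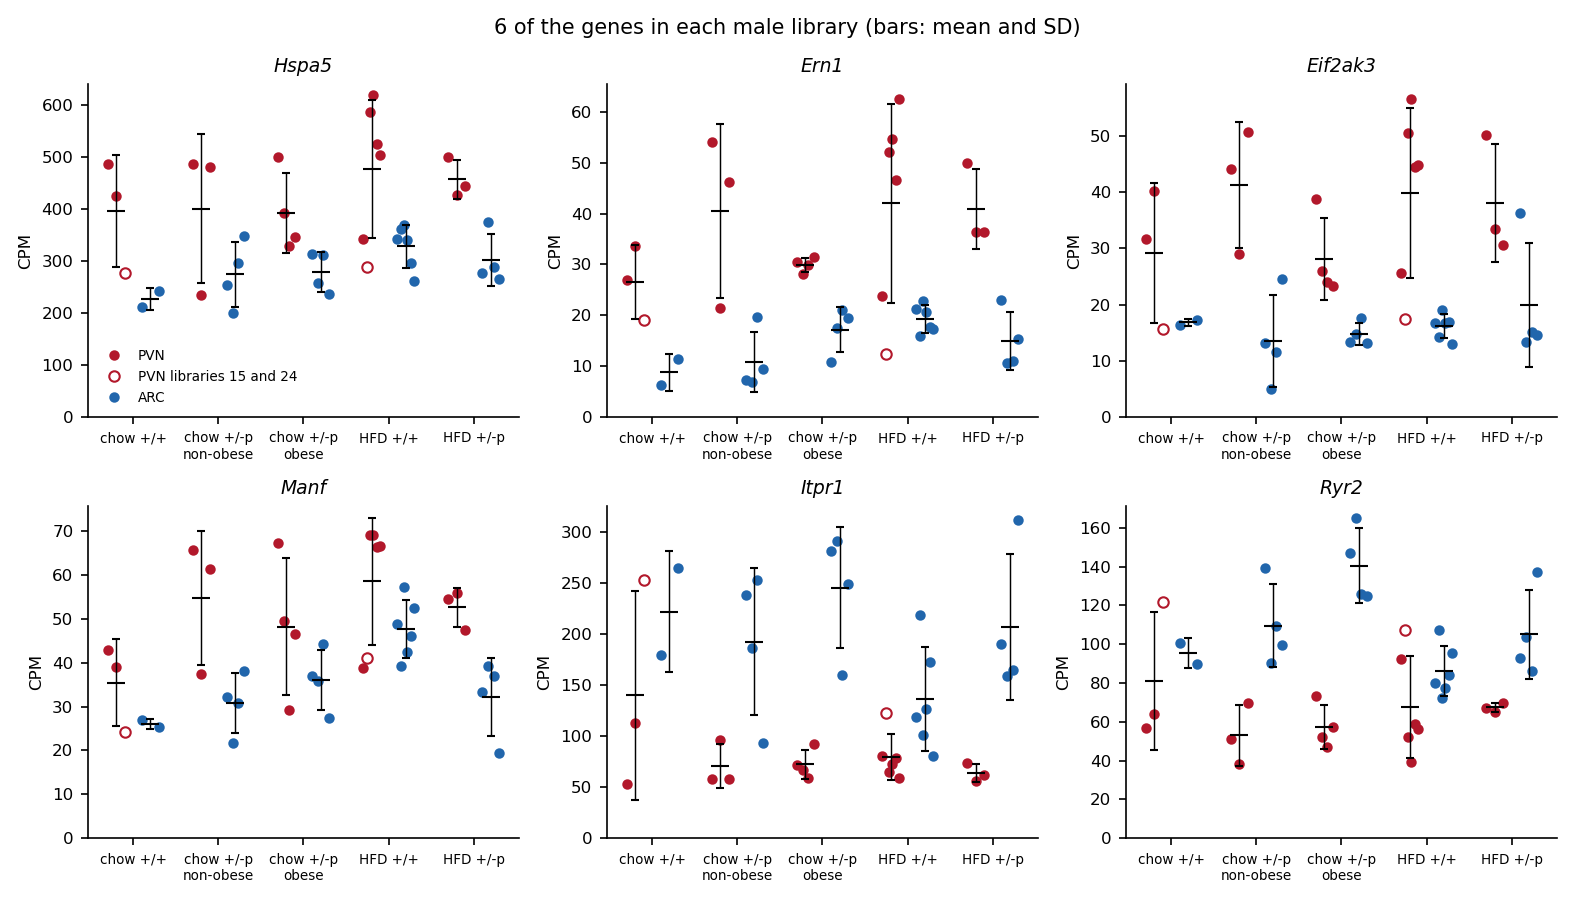
CPM of Hspa5, Ern1, Eif2ak3, Manf, Itpr1 and Ryr2 in each male library by group, PVN in red and ARC in blue, with the mean and SD of each group; open points are PVN libraries 15 and 24. PVN points lie above ARC points for Ern1 and Eif2ak3 and below them for Itpr1 and Ryr2 in most groups, and library 15 is the Itpr1 value of 253 CPM.

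The nucleus difference was seen in each of the 5 groups for many genes. The log2 difference was positive in all 5 groups for Hspa5 (0.50 to 0.81), Hsp90b1 (0.45 to 0.70), P4hb (0.54 to 0.94), Pdia4 (0.55 to 0.79), Hyou1 (0.51 to 0.68), Ern1 (0.81 to 1.88) and Eif2ak3 (0.80 to 1.56). It was negative in all 5 groups for Itpr1 (-1.75 to -0.66), Ryr2 (-1.28 to -0.23), Stim1 (-0.84 to -0.12) and Ssr3 (-0.63 to -0.30). Differences in single groups were not tested. No gene of the 51 had PVN and ARC libraries without overlap, with or without libraries 15 and 24.

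Hspa5 and several chaperones varied together from library to library of the male PVN. Log2 CPM minus the mean of the library's group was correlated with that of Hspa5 for 8 partners in 3 sets of libraries (24 relations, permutation within groups, Benjamini-Hochberg adjusted over the 24), and a relation was called at an adjusted permutation p under 0.05. In the male PVN (n = 19) Pearson's r was 0.92 for Dnajb9, 0.92 for Hsp90b1, 0.92 for Pdia4, 0.90 for Hyou1 and 0.90 for Manf. Their adjusted permutation p ran from 0.00024 to 0.000624, and 1e-05 is the smallest unadjusted p that the permutations can give. Spearman's rho for the same 5 was 0.916, 0.907, 0.925, 0.9 and 0.905, with adjusted permutation p between 0.00012 and 0.000384. Without libraries 19 and 24, the 2 farthest from the median of Hspa5, r stayed between 0.829 and 0.89. With libraries 15 and 24 left out instead, r of the same 5 lay between 0.865 and 0.906. Sdf2l1 (r = 0.35, rho = 0.349), Creld2 (r = 0.24, rho = 0.167) and Herpud1 (r = 0, rho = -0.058) were not called, with adjusted permutation p of 0.336, 0.445 and 0.999 for r. Over all genes tested in the male PVN, r with Hspa5 had a median of -0.052 and a 95th percentile of 0.541.

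In the ARC (n = 20) 1 of the 8 relations was called at 0.05, that of Hsp90b1, with r = 0.66 (adjusted permutation p = 0.0452), rho = 0.632 (adjusted p = 0.0412) and r = 0.549 without libraries 39 and 51. Manf gave r = 0.56 and Hyou1 r = 0.49, with adjusted permutation p of 0.107 and 0.139. Over all genes tested in the ARC, r with Hspa5 had a median of 0.024 and a 95th percentile of 0.472. In the female PVN (n = 10) none was called at 0.05. Hsp90b1 gave r = 0.90 there (rho = 0.891, adjusted permutation p = 0.0645), and Hyou1, Manf and Pdia4 gave r = 0.838, 0.836 and 0.729 (adjusted permutation p = 0.117, 0.134 and 0.134), while Dnajb9 gave r = 0.03. High r was common among all genes of the female PVN, with a median of 0.242 and a 95th percentile of 0.801. Hsp90b1, Hyou1, Manf and Pdia4 lay at percentiles 99.2, 97, 96.9 and 89.9 of all genes there. Differences in r between the sets of libraries were not tested. Cell markers moved with Hspa5 in the male PVN. Its r was 0.81 with the summed endothelial markers (rho = 0.807, adjusted permutation p = 9e-04 over 30 relations) and 0.77 with the summed PVN neuron markers (rho = 0.867, adjusted p = 9e-04), and -0.71 with the oligodendrocyte markers (adjusted p = 0.0501). With the summed general neuron markers r was -0.59 in the male PVN (adjusted permutation p = 0.138). In the female PVN r was -0.33 with the endothelial, 0.77 with the PVN neuron and 0.74 with the general neuron markers. None was called there (adjusted permutation p = 0.741, 0.269 and 0.394). The part of these markers in the relations was not tested.

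**Figure D4:**
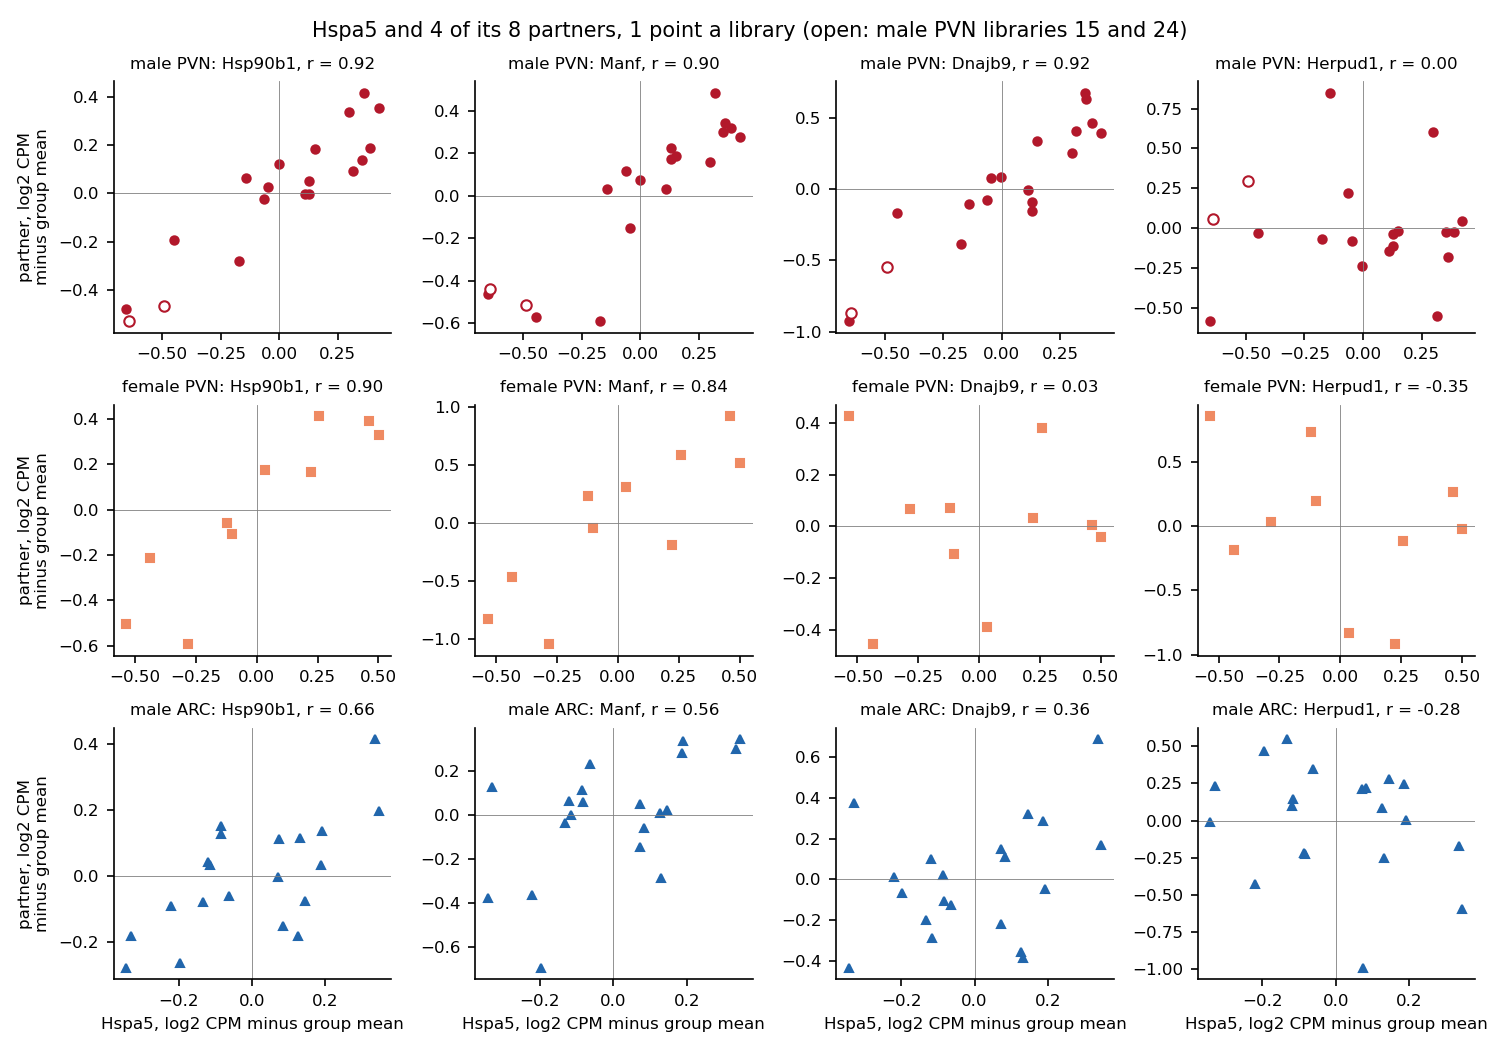
Log2 CPM minus group mean of Hsp90b1, Manf, Dnajb9 and Herpud1 against that of Hspa5, 1 point a library, in the male PVN (n = 19), female PVN (n = 10) and male ARC (n = 20); open points are PVN libraries 15 and 24. In the male PVN Hsp90b1, Manf and Dnajb9 lie along a line (r = 0.92, 0.90 and 0.92) and Herpud1 does not (r = 0).

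Loss of Nnat was compared within each nucleus and sex, to ask whether these genes differ with genotype or with the obesity of some Nnat+/-p mice. In none of the 16 comparisons of genotype, weight class or diet was any of the 51 genes called by edgeR's quasi-likelihood test. DESeq2 and limma also called none, except between diets, which follow. Over all genes, the study reported more genes at this threshold with its own DESeq2 analysis than edgeR called here. This held for obese Nnat+/-p against Nnat+/+ in the male PVN and for both weight classes in the female PVN. In the male PVN on chow, 50 of the 51 genes were tested. At an unadjusted p under 0.05 there were 2 genes for obese Nnat+/-p against Nnat+/+, 1 for non-obese Nnat+/-p against Nnat+/+, 0 for obese against non-obese Nnat+/-p and 3 for both weight classes against Nnat+/+. Of all genes, 3.52%, 2.56%, 1.66% and 3.53% passed at that level, and 0.0256%, 0.0128%, 0% and 0.0192% were called. DESeq2 gave 2, 1, 0 and 2 genes at an unadjusted p under 0.05 and limma 0, 1, 1 and 1. Without library 15, edgeR gave 3 genes for obese Nnat+/-p, 0 for non-obese and 1 for both classes against Nnat+/+, none called. The 2 genes for obese Nnat+/-p with library 15 were Itpr1 and Herpud1. Without it their unadjusted p was 0.536 and 0.157 by edgeR, so the 3 are other genes.

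Itpr1 had the smallest p in the male PVN on chow and rested on library 15. It was at 53.3, 113 and 253 CPM in Nnat+/+, at 58.2, 58.4 and 96 CPM in non-obese Nnat+/-p and at 59.3, 67.1, 71.6 and 92.2 CPM in obese Nnat+/-p libraries. The lowest of the 3 Nnat+/+ values lay below every Nnat+/-p value and the other 2 above. The log2 fold change of both weight classes against Nnat+/+ was -0.96 (SE 0.30, unadjusted p = 0.0044, adjusted p = 1 by edgeR). It was -0.21 without library 15, and -1.34, with an adjusted p of 0.0385, without library 13. Library 15 was the one with 10.1 CPM of PVN neuron markers and 214 CPM of ARC neuron markers. Herpud1 (-0.74) and Ryr2 (-0.55) were the other genes at an unadjusted p under 0.05, and the PVN library with the highest level of each was also library 15, without which they gave -0.56 and -0.13. Herpud1 in obese Nnat+/-p gave -0.81, and -0.64 without library 15.

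Manf had the smallest p among genes with higher values in Nnat+/-p for both weight classes together and for the non-obese, and Ddit3 for the obese. Manf was at 24.2, 39.1 and 42.9 CPM in Nnat+/+, at 37.3, 61.2 and 65.7 CPM in non-obese and at 29.2, 46.6, 49.5 and 67.3 CPM in obese Nnat+/-p libraries of the male PVN. The groups overlapped, and the log2 fold change of both classes was 0.53 (SE 0.28, unadjusted p = 0.0741, adjusted p = 1 by edgeR), and 0.32 without library 15. Ddit3 was at 5.2, 7.86 and 11.9 CPM in Nnat+/+ and 8.1, 14.7, 17.3 and 27 CPM in obese Nnat+/-p libraries (0.99, SE 0.50). Its fold change was 0.68 without library 16 and 1.35 without library 15. Obese and non-obese Nnat+/-p mice were led by Sec63 (-0.48, SE 0.27), the Sec61 partner, at 52.9, 59.6 and 76.2 CPM in non-obese and 28.6, 45.5, 48.1 and 59.9 CPM in obese libraries, and by Srp14 (0.31, SE 0.30), at 43.1, 71 and 83.8 against 65.4, 67.6, 77.8 and 120 CPM. Srp14 gave 0.11 without library 19 or without library 16, and 0.52 without library 22, and Sec63 gave -0.32 without library 22. Hspa5 was not called between genotypes, with a 95% interval (normal approximation) of -0.50 to 0.47 for both classes against Nnat+/+. An interval this wide does not show that its level was unchanged.

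**Figure D5:**
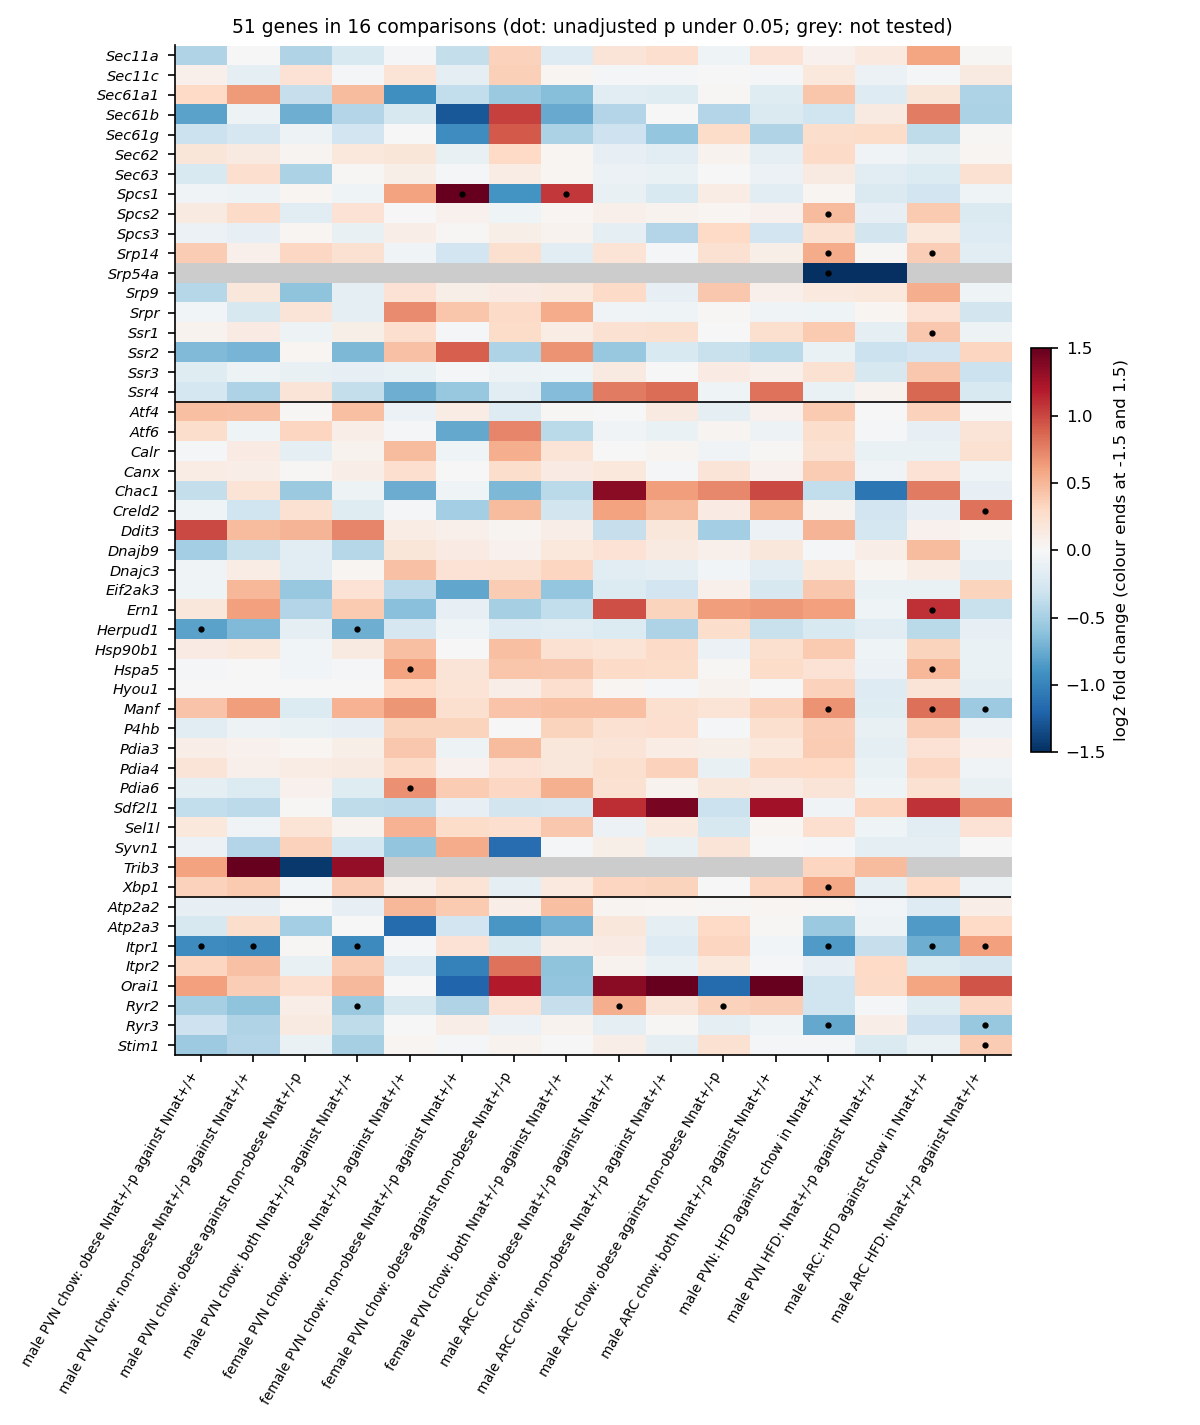
Log2 fold change of the 51 genes (ordered by role) in the 16 comparisons of genotype, weight class and diet, with a dot where the unadjusted p is under 0.05 and grey where a gene was not tested. Dots are scattered over the columns, with 7 and 6 in the HFD against chow columns, and no gene was called in any column.

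In the female PVN, 49 genes were tested. At an unadjusted p under 0.05 there were 2 genes for obese Nnat+/-p against Nnat+/+, 1 for non-obese, 0 for obese against non-obese and 1 for both classes, against 3.18%, 4%, 3.06% and 4.51% of all genes (called, 0.0129%, 0.00646%, 0% and 0.0129%). DESeq2 gave 5, 2, 0 and 3 and limma 2, 0, 1 and 3. In the male ARC, also with 49 genes, there were 1, 0, 1 and 0 in the same order, against 2.59%, 1.9%, 4.25% and 1.86% of all genes (called, 0.0205%, 0.0136%, 0.00682% and 0.0205%). DESeq2 gave 1, 1, 1 and 1 and limma 1, 1, 0 and 2.

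Spcs1, an accessory subunit of signal peptidase, had the smallest p in the female PVN. It was at 5.74, 9.84, 16.3 and 25.7 CPM in Nnat+/+, at 26.7, 29 and 63.9 CPM in non-obese Nnat+/-p and at 18.5, 19.1 and 29.4 CPM in obese Nnat+/-p libraries. Every non-obese Nnat+/-p value lay above every Nnat+/+ value, while the obese values overlapped both. Non-obese Nnat+/-p differed from Nnat+/+ by a log2 fold change of 1.51 (SE 0.54, unadjusted p = 0.0136, adjusted p = 1 by edgeR), and 0.92 without library 10. Library 10, at 63.9 CPM, had the lowest sum of general neuron markers of the 10 female libraries (387 CPM, median 767). The total count of library 10 was 6702396, with 12898 genes detected. Libraries 9 and 11 of the same group had total counts of 30228973 and 14522714, with 19707 and 15864 genes detected. All genes followed here together took 0.437% of the counts of library 10, against 1.04% and 0.848% in libraries 9 and 11. The part of depth, of these shares and of the neuron markers was not tested. Of the exon bases of Spcs1, 16.3% are shared with Glt8d1 on the opposite strand, and the strand setting of the counting is not given in the sources used here.

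Library 10 also stood apart for other genes. Eif2ak3 was at 45.1, 48.3, 55.4 and 64.8 CPM in female Nnat+/+ and at 3.9, 41.9 and 51.2 CPM in non-obese Nnat+/-p libraries, the lowest being library 10 (log2 fold change -0.78, -0.24 without it and -1.28 without library 11). Syvn1 was at 18.5, 32.4 and 106 CPM in non-obese and at 13.2, 21.7 and 39.9 CPM in obese Nnat+/-p libraries, the highest again library 10 (-1.14, and -0.01 without it). Hsp90b1 was at 563, 974 and 1150 CPM in non-obese and 1160, 1170 and 1370 CPM in obese Nnat+/-p libraries (0.45, SE 0.30), the lowest also library 10, without which the fold change was 0.23.

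In obese Nnat+/-p females 2 genes, Pdia6 and Hspa5, had an unadjusted p under 0.05. Pdia6 was at 40.7, 89.5, 103 and 140 CPM in Nnat+/+ and at 131, 160 and 171 CPM in obese Nnat+/-p libraries, with one Nnat+/+ library inside the obese range (0.69, SE 0.32, unadjusted p = 0.0449, adjusted p = 1 by edgeR, and 0.45 without library 2). Hspa5 gave 0.61 (SE 0.29). Libraries 2 and 3 held the lowest Nnat+/+ values of both genes. Their total counts were 6219365 and 8417480, against 21091294 and 23906593 in Nnat+/+ libraries 4 and 1 and 11026573 to 21002007 in obese ones. All genes followed here together took 0.477% and 0.599% of their counts, against 0.914% and 0.965%, and 0.887% to 0.971%, in the same order. The part of depth and of these shares was not tested. Ssr4 had the smallest p among genes with lower values in obese Nnat+/-p, at 27.6, 31.4, 33.2 and 54.9 CPM in Nnat+/+, at 18.4, 23.6 and 34.2 CPM in non-obese and at 21, 21 and 26.8 CPM in obese Nnat+/-p libraries, with an unadjusted p of 0.105 for the obese by edgeR (-0.73, and -0.45 without library 3).

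In the ARC on chow, Ryr2 led. It was at 90 and 101 CPM in Nnat+/+, at 90.1, 99.6, 110 and 139 CPM in non-obese Nnat+/-p and at 125, 126, 147 and 165 CPM in obese Nnat+/-p libraries. All 4 obese values lay above both Nnat+/+ values. The log2 fold change of obese Nnat+/-p against Nnat+/+ was 0.54 (SE 0.21, unadjusted p = 0.0148, adjusted p = 1 by edgeR) and against non-obese Nnat+/-p 0.34 (SE 0.16). The ARC neuron markers summed to 205 to 221 CPM in obese, 65.9 to 189 CPM in non-obese Nnat+/-p and 84.4 to 95.3 CPM in Nnat+/+ libraries, and their part was not tested. With 2 Nnat+/+ libraries, single values weigh heavily. Ssr2, at 14.3 and 29.1 CPM in Nnat+/+ and 13, 15, 15.1 and 16.1 CPM in obese Nnat+/-p libraries, gave -0.57, 0.05 without library 33 and -0.999 without library 34. Herpud1 was at 31.5 and 44 CPM in Nnat+/+, 24.8, 25.5, 29.2 and 29.8 CPM in non-obese and 23.9, 32, 36.2 and 40.4 CPM in obese Nnat+/-p libraries (non-obese against Nnat+/+ -0.46, SE 0.28, and -0.22 without library 34).

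Orai1 was at 1.19 and 1.24 CPM in Nnat+/+ and at 0.89, 3.4, 7.27 and 16.8 CPM in non-obese Nnat+/-p libraries of the ARC, a spread wider than the difference (2.51, SE 1.27, and 1.63 without library 39). The 2 highest were libraries 39 and 40, which share a labelled weight, and with the 2 summed the fold change was 1.86. Sel1l was at 132, 140, 164 and 167 CPM in non-obese and 102, 130, 131 and 152 CPM in obese Nnat+/-p libraries (-0.24, SE 0.16, and -0.16 without library 41).

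HFD was compared with chow in Nnat+/+ mice. By label the HFD-fed Nnat+/+ males weighed 37.4 to 43.9 g and the chow-fed ones 31.4 to 33.5 g. Diet and body weight therefore cannot be told apart in this comparison. In the male PVN 7 of 51 genes (13.7%) passed at an unadjusted p under 0.05, against 10.3% of all genes, and none was called by edgeR, against 1.43% of all genes. DESeq2 called 2 and limma 1, with 5 and 10 at an unadjusted p under 0.05. In the ARC 6 of 49 (12.2%) passed, against 8.54%, and none was called, against 1.16%. DESeq2 called 3 there and limma 5, with 8 and 9 at an unadjusted p under 0.05. The shares of the 51 genes were close to those of all genes.

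Manf had the smallest p among genes with higher values on HFD in each nucleus, and was not called in either. In the ARC it was at 25.2 and 26.9 CPM on chow and at 39.2, 42.3, 46, 48.8, 52.4 and 57.3 CPM on HFD, without overlap. Its log2 fold change there was 0.83 (SE 0.27, adjusted p = 0.276 by edgeR), and between 0.77 and 0.90 when one library was left out. With libraries 39 and 40 summed its adjusted p was 0.213. In the PVN it was at 24.2, 39.1 and 42.9 CPM on chow and at 38.8, 41, 66.4, 66.6, 69.1 and 69.2 CPM on HFD (0.68, SE 0.25, adjusted p = 0.332 by edgeR). The 2 lowest HFD values were libraries 23 and 24 and the lowest chow value was library 15, and without libraries 15 and 24 the fold change was 0.56. In the ARC Ern1 (1.10, SE 0.42), Hspa5 (0.50, SE 0.20), Ssr1 (0.41, SE 0.17) and Srp14 (0.37, SE 0.18) were the other genes higher at an unadjusted p under 0.05. In the PVN these were Xbp1 (0.59, SE 0.24), Srp14 (0.55, SE 0.24) and Spcs2 (0.47, SE 0.19). Without library 15, the PVN count at an unadjusted p under 0.05 fell from 7 to 3, and it was 7 without libraries 15 and 24. Xbp1, Spcs2 and Manf gave 0.43, 0.45 and 0.48 in the PVN without library 15 (unadjusted p = 0.111, 0.0537 and 0.0883 by edgeR). Srp14 was called in the PVN without library 15 (0.97, SE 0.26, adjusted p = 0.0859 by edgeR), and without libraries 15 and 24 Sec11a was called as well (1.14, SE 0.43, adjusted p = 0.239 by edgeR). The ARC neuron markers summed to 239 to 862 CPM on HFD and 84.4 to 95.3 CPM on chow in these ARC libraries, and their part was not tested.

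Itpr1 had the smallest p among genes with lower values on HFD in each nucleus, was not called in either, and in the PVN again rested on library 15. In the PVN it was at 53.3, 113 and 253 CPM on chow and at 58.9, 64.7, 72.3, 79, 81 and 123 CPM on HFD. The log2 fold change was -0.85 (SE 0.28, adjusted p = 0.261 by edgeR), -0.09 without library 15, -0.26 without libraries 15 and 24, and -1.21, with an adjusted p of 0.0164, without library 13. In the ARC it was at 180 and 264 CPM on chow and at 81, 101, 118, 126, 173 and 219 CPM on HFD, with one HFD value between the chow values (-0.73, SE 0.31, adjusted p = 0.472 by edgeR), and the fold change was -0.41 without library 34. Ryr3 (-0.77, SE 0.36) and Srp54a (-3.39, SE 1.65) were the other genes lower in the PVN at an unadjusted p under 0.05. Without library 15 Ryr3 gave -0.635 and Srp54a -3.95 (unadjusted p = 0.128 and 0.0246 by edgeR).

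On HFD, Nnat+/-p was compared with Nnat+/+ in each nucleus. In the male PVN none of the 51 genes passed an unadjusted p under 0.05 by edgeR, DESeq2 or limma, against 0.99% of all genes by edgeR (called, 0.00569%). The smallest p were those of Itpr2, at 18.2, 19.6, 20.4, 24, 24 and 26.7 CPM in Nnat+/+ and 26.1, 27.6 and 28.9 CPM in Nnat+/-p libraries (0.29, SE 0.27), and Chac1, at 1.81, 2.64, 2.82, 3.29, 4.04 and 4.69 CPM against 1.49, 1.54 and 1.56 CPM (-1.08, SE 0.87). The Chac1 groups did not overlap, at a few counts a library.

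In the ARC 5 of 49 genes (10.2%) passed at an unadjusted p under 0.05, against 4.54% of all genes, and none was called, against 0.0127% (DESeq2 6 and limma 4 at an unadjusted p under 0.05, none called). Manf was at 39.2, 42.3, 46, 48.8, 52.4 and 57.3 CPM in HFD-fed Nnat+/+ and at 19.4, 33.3, 37 and 39.2 CPM in HFD-fed Nnat+/-p libraries, groups that met at 39.2 CPM (-0.55, SE 0.20, unadjusted p = 0.0107, adjusted p = 0.999 by edgeR, and -0.36 without library 53). Creld2 was at 3.61, 7.82, 7.91, 8.58, 9.25 and 9.85 CPM in Nnat+/+ and at 10.9, 11.5, 13 and 19.6 CPM in Nnat+/-p libraries, all of them higher (0.81, SE 0.32). The other 3 genes were Itpr1 (0.62, SE 0.25), Ryr3 (-0.56, SE 0.24) and Stim1 (0.39, SE 0.17). Manf and Itpr1 shared their HFD-fed Nnat+/+ libraries with the comparison of diets, so that the opposite signs of the 2 comparisons are not independent.

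Whether effects differed between settings was tested in 5 contrasts of edgeR's quasi-likelihood test, which were chosen after seeing the data: genotype by diet in each male nucleus, genotype by nucleus, diet by nucleus, and genotype by sex in the PVN. None of the 51 genes was called in any of them, and 0, 1, 3, 0 and 2 genes passed at an unadjusted p under 0.05, against 3.85%, 3.83%, 6.09%, 5.62% and 6.47% of all genes. The one for diet in the ARC was Manf, whose genotype difference was lower on HFD than on chow (difference of log2 fold changes -0.90, SE 0.33, unadjusted p = 0.00969, adjusted p = 1 by edgeR). Ryr2 led genotype by nucleus (-0.93, SE 0.35, adjusted p = 0.794 by edgeR), before Ssr4 and Itpr1, and Itpr1 led genotype by sex (-1.06, SE 0.43, adjusted p = 0.757 by edgeR), before Ssr2. Without library 15 none of the 51 passed an unadjusted p under 0.05 in either, and Ryr2 gave -0.51 (SE 0.35, adjusted p = 0.854 by edgeR) and Itpr1 -0.31 (SE 0.43, adjusted p = 1 by edgeR), a setting also chosen after seeing the data. Genotype by diet in the male PVN and diet by nucleus each went the other way without library 15, from 0 genes to 1 at that level, none called.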

How the data were processed

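Total RNA libraries (SMARTer Stranded, Pico input) of laser-captured nuclei were sequenced as single-end reads by the authors, and the deposited tables hold their raw counts per Ensembl gene, mapped with STAR 2.5.0a to GRCm38 per the submitters' processing notes. The counting tool and its strand setting are not given in the sources used here. Groups came from the labels, and weight classes from labelled weight as in the study's methods. Of 53 libraries 49 were used. Sample 32 (label and table name different nuclei) and samples 5, 7 and 35 (low counts) were left out.

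The 51 genes, their grouping by role, the other pathway genes and the cell type markers were chosen with earlier results of these data known. The rule for genes given with values in each library took every gene called, the gene with the smallest p in each direction of each comparison, and the genes of highest and lowest level per kb in each role. Between the nuclei, called genes are given by their lowest, median and highest values or by fold change alone. Genes named beyond the rule either passed an unadjusted p under 0.05 or were named beside related genes although they did not.

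Counts were fitted per nucleus and sex with edgeR 4.0.16 in R 4.3.3 (filterByExpr, minimum count 10, TMM, quasi-likelihood test), and p-values were Benjamini-Hochberg adjusted over all genes of a fit (14658 to 21400). Chow-fed groups made one fit, for HFD the fit held every male group of that nucleus, and 1 fit of both male nuclei compared them. Srp54a did not pass the filter in the chow fits, nor Trib3 in the female PVN and ARC, and both were untested in the ARC. Printed levels are CPM with TMM factors over the 49 libraries together, a scale chosen after seeing the data. Correlations used log2 CPM (prior count 2) minus group means and 100000 permutations within groups. Alternatives were DESeq2 1.42.0, limma 3.58.1 with quality weights, RLE factors, no filter, all labelled libraries, each library left out, an adjusted p under 0.05 and others named with their values. Scripts were tested on simulated data. GENCODE annotation of GRCm38 gave symbols for 53274 of 53379 genes. Nothing says which libraries of a nucleus come from separate litters, so p-values measure the spread between these libraries. Libraries 39 and 40, and 1 and 2, share a labelled weight. Whether each pair comes from separate mice is not known, and they were counted separately, with 39 and 40 summed as an alternative. Across the nuclei, libraries 24 and 51 share a labelled weight but have opposite genotype labels, as do libraries 30 and 44. A fit without libraries 24, 30, 44 and 51 was another alternative.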

Additional observations from a re-analysis of the deposited data

Results flagged for a closer look

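Among the genes given with values in each library, 26 pairs of a gene and a group of 4 to 10 libraries were tested for a single library far from the rest, and 2 had one. Chance gives about 1 in 20. Itpr1 was at 123 CPM in library 24 of the HFD-fed Nnat+/+ male PVN, whereas the other 5 libraries of the group were between 58.9 and 81 CPM, and the gap took up a share of 0.655 of the group's range. Library 24 also had 146 CPM of summed PVN neuron markers and 82.4 CPM of summed ARC neuron markers. Creld2 was at 3.61 CPM in library 44 of the HFD-fed Nnat+/+ ARC, with the other 5 libraries between 7.82 and 9.85 CPM and a gap share of 0.675.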

How the results depend on the processing

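The count of genes called between the nuclei, 29, was 33 with DESeq2, 33 with RLE factors, 31 with limma, 27 with no filter on low counts, 22 at an adjusted p under 0.05, 30 without libraries 15 and 24, 29 with weight-matched mice as a block and 25 to 32 with one library left out. The median of all genes moved with it, from 0.13 to 0.16 with RLE factors, 0.06 with DESeq2 and 0.03 with limma. Of the calls at 0.25, Trib3, Sel1l, Spcs2, Srpr, Pdia3, Pdia6, Herpud1 and Syvn1 were lost in at least one setting and the other 21 in none of those run. For HFD against chow in Nnat+/+, the count of 0 became 2 with DESeq2, 1 with RLE factors, 2 with no filter, 1 with limma, 1 without libraries 24, 30, 44 and 51, 2 without libraries 15 and 24 and 0 to 1 with one library left out in the male PVN. In the ARC it became 3 with DESeq2, 1 with no filter, 5 with limma, 1 with all labelled libraries, 1 with libraries 39 and 40 summed, 3 with the 2 groups alone and 0 to 2 with one library left out. Elsewhere it became 1 with no filter for both Nnat+/-p classes in the male PVN and for Nnat+/-p on HFD in the ARC, 1 with all labelled libraries for obese Nnat+/-p females against Nnat+/+ and against non-obese Nnat+/-p, and 0 to 1 with one library left out for obese Nnat+/-p, and for both classes, in the male PVN. Signs turned for Syvn1 in obese against non-obese females (2.26 with all labelled libraries), Herpud1 in both classes in the ARC (0.034 with all labelled libraries), Ssr2 in the obese ARC (-0.999 to 0.052 with one library left out, the highest without library 33) and the relation of Hspa5 and Dnajb9 in the female PVN (r = -0.093 with RLE factors). Apart from library 33, the cause was not tested. Few libraries a group, 2 for chow-fed Nnat+/+ in the ARC, limit the group comparisons, and low counts limit Srp54a, Trib3, Chac1 and Orai1. Labelled weights match across the nuclei for most male libraries, and the main comparison of nuclei did not use this pairing. The block of weight-matched mice was the only paired alternative, because replicate numbers are not shared between groups.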
